A study of Oryza sativa Indica Group with 45 samples.

Results

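Gene expression was compared between the leaf and the root of rice seedlings of 3 genotypes, with 18 of the 45 arrays of the series: 9 arrays of young leaf and 9 of young root. They were chosen by title, and no measured value entered the choice. In each tissue there were 3 arrays of the hybrid MRP5401, 3 of its female parent, the B line PMS80, and 3 of its male parent, the R line PR319, all of indica rice. The seedlings were 14 days old and had grown in hydroponic medium in a culture room after surface sterilization of the seed. Shoots and roots were parted at harvest, so that the tissue called young leaf may be the whole shoot. No group carried an added treatment or transgene, and the time of day at harvest was not given in the sources used here. As a comparison, 9 arrays of mature leaf and 9 of mature root of the same 3 genotypes, from plants of 40 to 60 days, were used.

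Leaves and roots of a cereal seedling divide the work of the plant. The leaf blade captures light in chloroplasts, fixes carbon and exports sugar, while the root takes up water, silicon, nitrogen, phosphate and metals and loads them into the xylem across an endodermis sealed by Casparian strips. Seedling roots and the leaf base also hold dividing and elongating cells, in which genes of replication, the cytoskeleton and the cell wall are active. Rice roots make fermentation enzymes and labdane-related diterpenoids, a group of defence compounds that includes the momilactones and phytocassanes.

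Each array reports the brightness of 57381 probe sets, given here on the log2 scale. Of these, 24130 had a mean level of 5 or more in at least 1 of the 15 groups of the series and were tested. A level under 5 was taken as close to background. Differences are young leaf minus young root in log2 units, and were tested with limma, with p-values adjusted by the method of Benjamini and Hochberg over all 24130 probe sets. Where a group mean lay under 5, it was raised to 5 before the fold was computed, and the fold is then given as at least that large. Levels of different probe sets are not compared, since probes differ in brightness.

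The labels were first checked against marker genes. The 6 tested leaf mesophyll markers averaged between 12.5 and 13.7 on the young leaf arrays and between 8.21 and 11.1 on the young root arrays, against 3.05 to 3.71 on the mature root arrays. The arrays labelled young root thus carried leaf markers well above background. Their mean was highest in hybrid roots, at 10.7, followed by 9.09 in B parent roots and 8.48 in R parent roots. Markers of root, 10 of the 20 listed being tested, averaged 5.49 to 5.82 on young leaf arrays and 7.87 to 9.29 on young root arrays. Averaged over genotypes, 9 of the 10 were called lower in young leaf, against 53.2% of all tested probe sets. By the stricter call defined below, 3 were lower, against 26.2%. In each young leaf group, 4 of the 10 were at 5 or above. In young root, 4 were under 5 in the hybrid and in the R parent, and 2 in the B parent. The 3 tested markers of the shoot meristem and stem base averaged 4.81 to 5.34 on young leaf arrays and 7.39 to 9.31 on young root arrays. OSH71, a homeobox gene of the class active in meristems, was between 2.35 and 2.48 on young leaf arrays and between 8.11 and 10.2 on young root arrays. The part these markers play in any difference reported here was not tested. In bulk tissue, fewer cells of a type and less RNA per cell cannot be told apart.

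The R parent young leaf arrays stood apart from the other young arrays. Their correlation with their own group was 0.960 to 0.968, against 0.977 to 0.990 on the other 15 young arrays. By the array weights of limma they were less apart: their weights were 0.23 to 0.49, that of replicate 1 of R parent young root was 0.30, and those of the other 14 young arrays were 0.55 to 4.90. Leaving out that root array moved none of the main counts by over 1.5 times. Their hybridization spike-ins averaged 12.3 to 13.1, against 10.6 to 12.2 on the other young leaf arrays and 10.0 to 11.2 on young root arrays. The main counts, the group counts that moved and the genes of the hybrid and age contrasts are also given without the R parent. For contrasts and single genes, the R parent young leaf arrays were left out, and other R parent arrays stayed in the fit. For counts of genes called in each genotype, the fit of all 45 arrays was kept and the R parent dropped from the call. The labels name biological replicates but not separate cultures, so the p-values measure the spread between these arrays.

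A large share of the measured genome differed between seedling leaf and seedling root. Averaged over the genotypes, 6778 probe sets (28.1%) were higher and 12844 (53.2%) lower in young leaf. The median difference over all tested probe sets was -0.41, and after quantile normalization it was -0.10. The share of higher among the called probe sets was 34.5% as deposited and 45.4% after quantile normalization. Without the R parent, 7102 were higher and 11395 lower. A stricter call was used for all counts of gene groups below. It required an adjusted p under 0.05 in each of the 3 genotypes, in the same direction, with at least 1 tissue above background in each. By this call 3068 probe sets (12.7%) were higher and 6329 (26.2%) lower in young leaf. These shares are the background for the gene group counts below that use this call. The 9 leaf arrays all lay above the 9 root arrays for 2689 probe sets (11.1%) and all below for 6273 (26.0%).

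The gene groups described here comprise 924 named genes, of which 745 had a probe set that passed the level filter and was not marked as cross-hybridizing. By the stricter call 135 of them (18.1%) were higher and 258 (34.6%) lower in young leaf. With the R parent dropped from the call, 179 were higher and 289 lower, where the shares over all tested probe sets were 18.1% and 29.1%. Dropping a genotype from the call cannot lower these counts. By the stricter call, 298 of all 2077 tested genes with a descriptive name were higher and 735 lower in young leaf. Their median difference was -0.69, so named genes in general lay further to the root side than all tested probe sets. The share of lower genes in the groups was near that of all named genes.

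**Figure D1:**
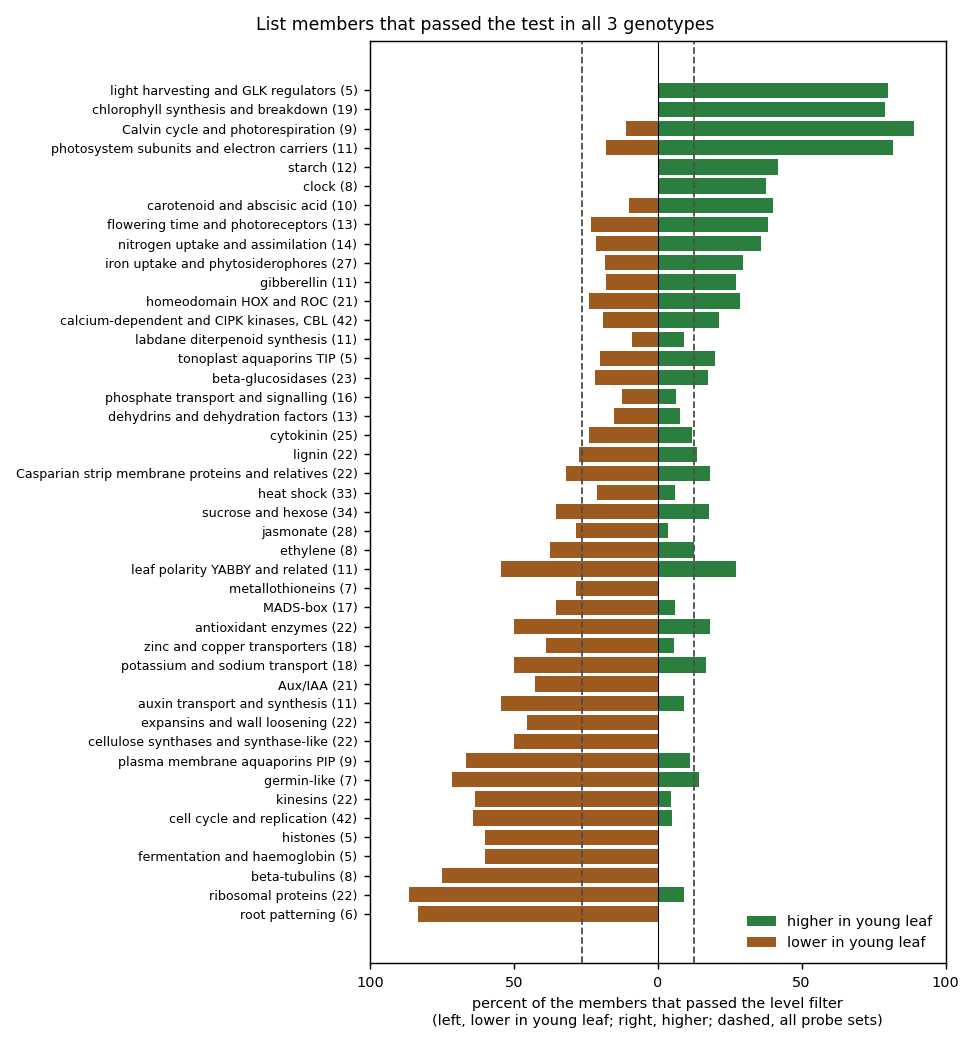
Percent of the members of each gene group that passed the test in all 3 genotypes, for the groups with at least 5 members above the level filter (number in brackets). Bars to the right show members higher in young leaf, bars to the left members lower; the dashed lines mark 12.7% and 26.2%, the same shares over all tested probe sets.

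Single genes were ranked among the 2077 with a descriptive name, by the smallest difference over the 3 genotypes, so a gene with a higher mean fold can rank lower. The 12 first towards leaf are described next. PIP2-7, a plasma membrane aquaporin, measured 14.22 to 15.05 on young leaf arrays with a median of 14.45, and 2.53 to 9.30 on young root arrays with a median of 4.61. It was at least 596-fold higher in young leaf (9.44 ± 0.50, SE, adjusted p = 1.7e-18). The other plasma membrane aquaporins that passed the test went the opposite way, as described below. Pi21, a proline-rich protein known from blast resistance, spanned 13.74 to 14.64 in young leaf and 2.89 to 8.13 in young root, at least 468-fold higher (9.30 ± 0.51, adjusted p = 3.4e-18). The probe sets of Pi21, LTP2-B, GDCSH, ABA8OX2, JAZ10 and ALDP are marked as able to bind more than 1 transcript. For both genes the spread lay in the roots, where single hybrid and B parent arrays reached about the middle of the scale, and no root array overlapped the leaf arrays.

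GLK2, a transcription factor that drives chloroplast development, lay between 11.86 and 13.85 in young leaf with a median of 13.12. In young root it lay between 2.40 and 6.66 with a median of 3.71, and it was at least 242-fold higher in leaf (9.06 ± 0.33, adjusted p = 1.9e-23). Its partner GLK1 had a median of 11.92 in young leaf and 6.37 in young root, at least 32.8-fold higher (5.31 ± 0.12, adjusted p = 3.9e-29). GLK2 was thus close to background in most root arrays even though other chloroplast genes were not. The glutaredoxins GRXC1 and GRXC15, small thiol-disulphide oxidoreductases, had leaf medians of 12.20 and 10.75 and root medians of 2.89 and 4.99. They were at least 142-fold and at least 51.8-fold higher in young leaf. GDCSH, the H protein of the glycine decarboxylase complex of photorespiration, had a leaf median of 12.73 and a root median of 5.56, at least 143-fold higher (7.43 ± 0.19, adjusted p = 1.8e-27).

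CHS1, chalcone synthase, the entry enzyme of flavonoid synthesis, measured 10.72 to 14.32 in young leaf and 4.30 to 9.79 in young root, and was 161-fold higher (7.33 ± 0.46, adjusted p = 1.8e-16). One B parent root array, at 9.79, lay well above the other root arrays for this gene. HAK17, a potassium transporter, had a median of 11.94 in leaf and 4.13 in root and was at least 131-fold higher (7.78 ± 0.26, adjusted p = 2.0e-24). LTP2-B, a lipid transfer protein, was at least 105-fold higher, with 12.55 to 13.60 in young leaf against 2.63 to 9.50 in young root. GER5, a germin-like protein, had a leaf median of 12.78 and a root median of 2.58, at least 214-fold higher (9.09 ± 0.52, adjusted p = 1.5e-17). NRAMP4, of a family of metal transporters, was 70.5-fold higher (6.14 ± 0.20, adjusted p = 1.6e-24), with 11.41 to 12.70 in leaf and 5.09 to 6.46 in root. CIPK31, a kinase that works with calcium sensors, was 45.3-fold higher, with medians of 11.28 in leaf and 5.86 in root. In all 12 of these genes the lowest leaf array lay above the highest root array, as for 11.1% of all tested probe sets. Ranking by the difference on these same arrays favours such a gap.

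Ranked in the same way, the 12 first towards root included transporters of silicon, phosphate and metals. Lsi2, the silicon efflux transporter, lay between 2.41 and 2.53 in young leaf and between 13.00 and 13.35 in young root. It was at least 285-fold lower in leaf (-10.66 ± 0.12, adjusted p = 1.3e-37). Every leaf array was close to background, and the 9 root arrays lay close together. Adh2, an alcohol dehydrogenase of fermentation, had medians of 3.05 in leaf and 13.48 in root, at least 347-fold lower (-10.35 ± 0.11, adjusted p = 2.4e-39). GER4, another germin-like protein, had medians of 3.31 and 13.20 in leaf and root, at least 269-fold lower (-9.82 ± 0.09, adjusted p = 4.6e-41). PHO1-2, which loads phosphate into the xylem, lay between 2.83 and 5.91 in young leaf and between 12.82 and 13.74 in young root, at least 274-fold lower (-9.19 ± 0.33). All 3 leaf arrays of the B parent, with a mean of 5.67, lay above those of the other genotypes for this gene.

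MT4C, a metallothionein, had the highest fold of these 12, at least 433-fold (-9.20 ± 0.24, adjusted p = 2.5e-27), with medians of 5.90 in leaf and 14.93 in root. RAA1, named for its role in root architecture, had medians of 4.11 in leaf and 12.78 in root and was at least 231-fold lower (-8.48 ± 0.18). OsCASPL1U3, a relative of the Casparian strip membrane proteins, lay between 2.83 and 3.54 in leaf and between 11.44 and 12.07 in root, at least 107-fold lower (-8.62 ± 0.11). CAD8A, a cinnamyl alcohol dehydrogenase of the lignin family, was at least 151-fold lower, and its root arrays ranged from 11.09 to 13.23 with the R parent highest. Nrat1, which takes up aluminium, and NRAMP5, which takes up manganese and cadmium, were at least 127-fold and at least 60.5-fold lower in leaf. Nrat1 ranged over 10.59 to 13.07 in roots and NRAMP5 over 10.08 to 11.70. OPR5, of the 12-oxophytodienoate reductase family, was at least 89.6-fold lower (-8.28 ± 0.20), and GLO3, a glycolate oxidase, at least 60.6-fold lower (-7.35 ± 0.21). In these 12 genes too, the 2 tissues shared no part of their range, which the ranking favours. All leaf arrays lay below all root arrays for 26.0% of tested probe sets.

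**Figure D2:**
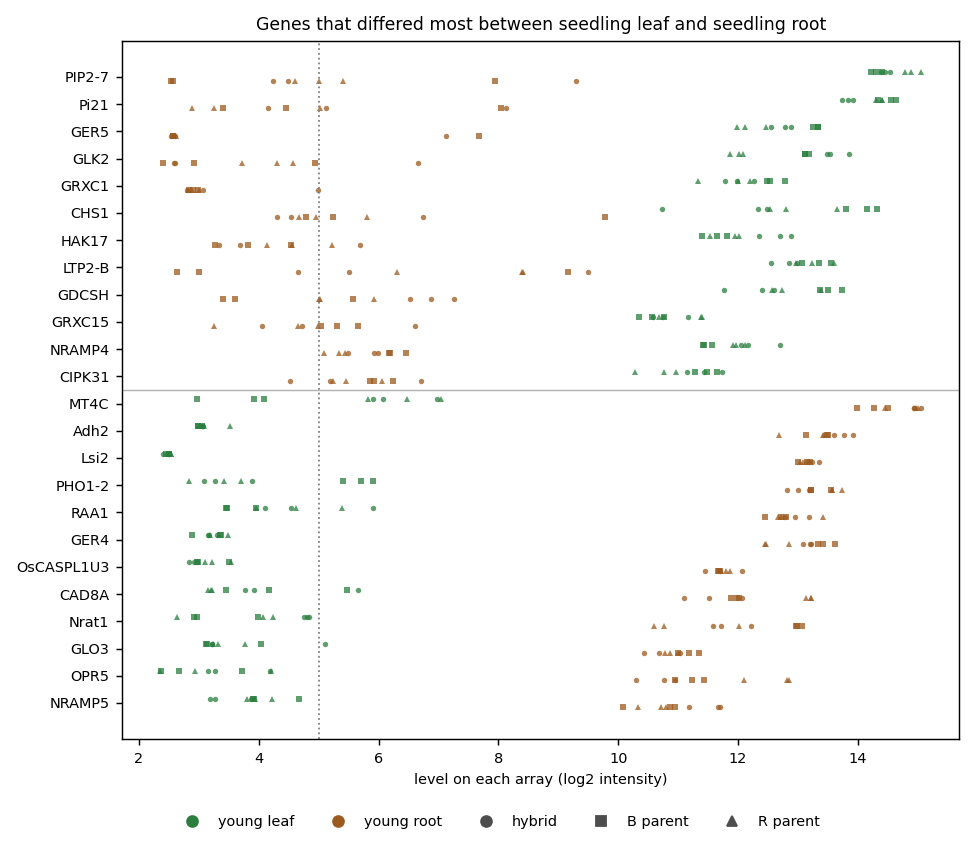
Level (log2 intensity) on each of the 9 young leaf (green) and 9 young root (brown) arrays for the 12 genes higher and the 12 lower in young leaf; the symbol gives the genotype and the dotted line marks the level of 5. Leaf and root arrays do not overlap for any of them, which ranking on these same arrays favours. The root arrays of several leaf genes, such as PIP2-7 (2.53 to 9.30), spread widely.

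Genes of photosynthesis were higher in leaf, though most were also well above background in seedling roots. Of 44 tested genes of light harvesting, photosystems, the Calvin cycle, photorespiration and chlorophyll metabolism, 36 were higher and 3 lower in young leaf in all 3 genotypes. The median difference of the 44 was 2.94, against -0.41 over all tested probe sets. With the R parent dropped from the call, which cannot lower a count, 37 were higher and 3 lower. RCABP69, a light-harvesting chlorophyll protein, lay between 14.30 and 15.25 in young leaf and between 9.94 and 13.34 in young root, 12.4-fold higher (3.63 ± 0.12, adjusted p = 4.6e-25). Plastocyanin (PETE) lay between 15.51 and 15.83 in young leaf and between 13.09 and 14.93 in young root, 3.29-fold higher (1.72 ± 0.11, adjusted p = 7.8e-16). Rubisco activase (rca) was 19.7-fold higher in leaf (4.30 ± 0.11), with medians of 14.76 in leaf and 10.61 in root. The tissues did not overlap in these 3 genes, but the root levels were far above background.

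By function, 4 of 5 genes of light harvesting and its GLK regulators were higher, the exception being CAB2R, described below. Of 11 photosystem subunits and electron carriers, 9 were higher, led by NDH-M, a subunit of the chloroplast NADH dehydrogenase-like complex, at least 57.6-fold, and the leaf-type ferredoxin-NADP reductase LFNR1, 42.9-fold. The other 2 were lower in leaf. FNR, a ferredoxin-NADP reductase, had medians of 9.87 in leaf and 13.04 in root and was 9.51-fold lower (-3.25 ± 0.15, adjusted p = 1.6e-20), and atpB, an ATP synthase subunit, was 2.56-fold lower (-1.36 ± 0.09). Among the Calvin cycle and photorespiration genes, 9 in number, 8 were higher and GLO3 was lower. Of 19 genes of chlorophyll synthesis and breakdown, 15 were higher and none was lower. CHLH, the large subunit of magnesium chelatase, had medians of 12.42 in leaf and 7.21 in root and was 29.4-fold higher (4.88 ± 0.23, adjusted p = 3.9e-20). Among genes of other groups, a pair of chloroplast enzymes also stood high in leaf: APX8, a chloroplast ascorbate peroxidase, 40.3-fold, and GLN2, the plastid glutamine synthetase, 27.1-fold.

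Water and silicon transport genes lay mostly on the root side. Of 9 plasma membrane aquaporins, 6 were lower in young leaf and PIP2-7 was higher. With the spike-in signal as a covariate, 3 were lower. PIP1-3 lay between 6.63 and 9.99 in leaf and between 13.70 and 15.06 in root, 65.4-fold lower (-6.03 ± 0.19, adjusted p = 3.3e-25). PIP2-4 and PIP2-5 were at least 54.4-fold and at least 31.2-fold lower, with every leaf array close to background. Of 5 tonoplast aquaporins, TIP2-1 was at least 85.9-fold lower in leaf and TIP4-1 was 1.91-fold higher (0.94 ± 0.13). Lsi1, the silicon influx channel that acts with Lsi2, was 18.9-fold lower in leaf (-4.24 ± 0.15). Unlike Lsi2, Lsi1 stayed above background in leaf, with 9.67 to 11.00, against 14.30 to 14.73 in root.

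Metal transport genes fell on both sides. Of 27 genes of iron uptake and phytosiderophores, 8 were higher and 5 lower in leaf, with a median difference of -0.27. The sign of this median depended on the processing. It was 0.35 after quantile normalization and 0.38 with the spike-in signal as a covariate. Higher in leaf were, besides NRAMP4, the ferric reductase listed as 0sFRO1, at least 15.7-fold, the vacuolar iron transporter VIT1, at least 10.8-fold, and the metal chelate transporter YSL16, 6.45-fold. VIT1 had medians of 8.87 in leaf and 3.19 in root. Lower in leaf were Nrat1 and NRAMP5, given above, and NAAT1, described with the mature plants. Of 18 zinc and copper transporters, 7 were lower and 1 was higher. HMA5, a copper pump of xylem loading, was at least 71.2-fold lower (-6.35 ± 0.15), and the zinc transporter ZIP1 at least 44.4-fold lower (-6.87 ± 0.19). COPT1, a copper importer, went against them at 3.82-fold higher (1.93 ± 0.07), with 12.14 to 14.04 in leaf and 10.37 to 12.39 in root. The 2 tissues overlapped in COPT1 levels over all genotypes, and the difference held within each genotype.

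Nitrogen, phosphate and potassium genes were also divided. Their counts stand against 12.7% higher and 26.2% lower over all tested probe sets. Of 14 nitrogen genes, 5 were higher and 3 lower in leaf. GLT2, a glutamate synthase, was at least 31.8-fold higher, while AMT1-2, an ammonium importer, was at least 12.7-fold lower and GDH2, a glutamate dehydrogenase, 9.30-fold lower. Of 16 phosphate genes, 2 were lower and 1 higher. The multicopper oxidases LPR1 and LPR2 went opposite ways: LPR2 was at 10.00 to 10.86 in leaf and 4.89 to 5.73 in root, 34.1-fold higher, and LPR1 was at least 8.84-fold lower. Of 18 potassium and sodium transporters, 9 were lower and 3 higher. HKT1;5, which keeps sodium out of the shoot, had medians of 2.81 in leaf and 8.82 in root and was at least 12-fold lower (-5.62 ± 0.14). HAK17, given above, HAK25 (1.83 ± 0.11) and HAK18 (0.93 ± 0.12) were higher. With the spike-in signal as a covariate HAK18 no longer passed (0.44, adjusted p = 0.079).

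Growth genes lay on the root side. Of 42 tested genes of the cell cycle and replication, 27 were lower in young leaf and 2 higher, with a median difference of -2.49, against -0.41 over all tested probe sets. The mitotic cyclin CYCB2-2 lay between 2.57 and 2.94 in leaf and between 7.22 and 9.59 in root, at least 12.4-fold lower (-5.86 ± 0.21, adjusted p = 1.1e-23). MCM5, of the replicative helicase, was at least 9.39-fold lower, and PCNA, the sliding clamp of DNA polymerase, 7.78-fold lower (-2.96 ± 0.15). The mitotic cyclin was thus close to background on every leaf array, while PCNA stayed above it at 5.38 to 6.63. KRP1, an inhibitor of cyclin-dependent kinases, was 2.98-fold higher in leaf (1.58 ± 0.10), and the cyclin CYCA1-4 2.10-fold higher (1.07 ± 0.11).

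The cytoskeleton and the ribosome showed the same side. Of 8 beta-tubulins, 6 were lower and none higher, led by TUB6 at 25.1-fold (-4.65 ± 0.24), TUB1 at 16.3-fold and TUB2 at 13.0-fold. Of 22 kinesins, the motors of the spindle and of transport, 14 were lower, with KIN14N at least 6.73-fold. KIN14L was the 1 kinesin higher in leaf, at 3.87-fold (1.95 ± 0.10). Of 22 ribosomal proteins, 19 were lower and 2 higher, with a median difference of -1.55. RPL5 lay between 10.64 and 11.45 in leaf and between 13.22 and 14.42 in root, 6.90-fold lower (-2.79 ± 0.14), and RPS15 was 5.58-fold lower (-2.48 ± 0.13). RPL18 and RPL27 went against the others: RPL18 was 8.75-fold higher (3.13 ± 0.22) and RPL27 7.95-fold higher in leaf (2.99 ± 0.12). The leaf arrays of both lay above all their root arrays.

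Cellulose synthases, expansins and germin-like genes lay mostly on the root side, and lignin genes fell on both sides. Of 22 cellulose synthases and synthase-like genes, 11 were lower and none higher, with CESA6 13.1-fold lower (-3.71 ± 0.26) and CESA5 8.18-fold lower. Of 22 expansins and other wall-loosening genes, 10 were lower and none higher. EXPB6 and EXPB7, beta-expansins, were at least 21.6-fold and at least 17.7-fold lower, each with a leaf median of about background, 2.95 and 2.94. Of 7 germin-like genes, 5 were lower and GER5 was higher. RGLP1 was at least 42.1-fold lower and GER1 at least 16.4-fold lower. Of 22 lignin genes, 6 were lower and 3 higher, shares near those over all tested probe sets, and 3 were lower and 3 higher with the spike-in signal as a covariate. LAC7, a laccase, lay between 11.18 and 13.55 in leaf and between 4.30 and 9.01 in root, 58.9-fold higher (5.88 ± 0.43, adjusted p = 9.0e-15), and CAD8C was at least 14.1-fold higher, opposite to CAD8A. The coumarate ligase 4CL4 was 3.22-fold higher (1.69 ± 0.12). Of 22 Casparian strip membrane proteins and relatives, 7 were lower and 4 higher, shares near the 26.2% and 12.7% over all tested probe sets. Among the higher ones was OsCASPL2A1, 12.1-fold (3.60 ± 0.23).

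Developmental regulators had members on both sides. Among the YABBY genes, plant transcription factors of lateral organs, YAB1 was at least 6.48-fold (3.89 ± 0.37), YAB2 at least 4.12-fold and YAB6 at least 5.35-fold higher in leaf. Of the 11 tested members of the leaf polarity group these were the 3 higher ones, and 6 were lower, among them HOX33, a class III homeodomain-leucine zipper gene, 8.35-fold lower (-3.06 ± 0.16), and LG2, known in maize from the boundary of blade and sheath, at least 10.7-fold lower. HOX33 lay between 5.33 and 8.29 in leaf and between 9.18 and 10.42 in root. Of 21 other homeodomain genes, 6 were higher and 5 lower. ROC1, of the class expressed in the epidermis, was at least 14.5-fold higher in leaf (5.08 ± 0.30), and HOX12 at least 18.7-fold lower (-5.86 ± 0.17). All 5 called genes of the root patterning group, out of 6 tested, were lower in leaf. Of 17 MADS-box genes, 6 were lower and 1 higher. MADS27, known from nitrate responses in roots, lay between 2.47 and 2.76 in leaf and between 9.12 and 9.87 in root, at least 23.1-fold lower (-6.90 ± 0.10). MADS16, known as a floral organ gene, had medians of 7.0 in leaf and 11.10 in root and was 10.3-fold lower, while MADS22 was 6.05-fold higher. The meristem markers OSH71 and FON1 were at least 25.8-fold and 2.78-fold lower in leaf.

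Light, clock and sugar genes were divided between the tissues. Of 13 genes of flowering time and light reception, 5 were higher and 3 lower. The blue-light receptor PHOT2 was 8.08-fold higher (3.01 ± 0.11), whereas the phytochrome PHYA had medians of 9.71 in leaf and 13.25 in root and was 11.6-fold lower (-3.53 ± 0.10, adjusted p = 2.5e-26). Of 8 clock genes, 3 were higher and none lower, with PRR37 9.01-fold higher. Of 12 starch genes, 5 were higher and none lower, with the starch synthase SSII-2 10.4-fold higher (3.38 ± 0.22). Of 34 genes of sucrose and hexose metabolism, 12 were lower and 6 higher, where 26.2% and 12.7% of all tested probe sets were. The sucrose synthase SUS1, which splits sucrose in sink tissues, was 51.6-fold lower (-5.69 ± 0.25), and the cell wall invertase CIN2 at least 20.7-fold lower. On the opposite side, the sucrose transporter SUT1 was at least 8.88-fold higher and the sugar transporter SWEET1B at least 15.9-fold higher. Of 5 fermentation and haemoglobin genes, 3 were lower: besides Adh2, the pyruvate decarboxylase PDC2, 6.44-fold, and the haemoglobin NSHB1, at least 6.25-fold.

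Hormone and stress genes showed both directions. Of 21 Aux/IAA repressors of auxin response, 9 were lower and none higher, with IAA12 at least 17.3-fold lower. Of 11 genes of auxin transport and synthesis, 6 were lower, led by the auxin-conjugating enzyme GH3.2, at least 22.3-fold, and PIN5A was higher, 5.56-fold (2.47 ± 0.18). Of 10 genes of carotenoid and abscisic acid synthesis and response, 4 were higher, with the phytoene synthases PSY2 and PSY1 15.9-fold and 11.1-fold and the zeaxanthin epoxidase ABA1 7.01-fold. The abscisic acid response factor ABF2 was the 1 lower member, 4.08-fold (-2.03 ± 0.15). Of 28 jasmonate genes, 8 were lower, a share near the 26.2% over all tested probe sets, and 1 was higher, against 12.7%. With the spike-in signal as a covariate, 4 were lower and none higher. The reductase OPR4 was at least 34.0-fold lower (-5.68 ± 0.25). CM-LOX1, a lipoxygenase, was at least 27.5-fold higher, though in the R parent its leaf mean was 6.68 ± 1.81, against 11.3 ± 0.17 in hybrid leaf and 11.4 ± 0.03 in B parent leaf (SD, n = 3). With the R parent dropped from the call, 5 jasmonate genes were higher and 8 lower. Of 22 antioxidant enzymes, 11 were lower and 4 higher: GSTU6, a glutathione transferase, was at least 26.6-fold lower and APX7 12.4-fold lower, opposite to APX8. APX4, MDAR2 and the superoxide dismutase RMSOD1 were also higher, 2.91-fold, 4.90-fold and 1.59-fold. The lectin salT and the dehydrin LIP9, both known from salt and drought responses, were at least 102-fold and 19.7-fold lower in leaf. MT1B, the second metallothionein called, was 7.97-fold lower (-2.99 ± 0.33).

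Other signalling groups had few called members or members on both sides. Of 42 calcium-dependent, CIPK and CBL genes, 9 were higher and 8 lower, with CIPK25 18.5-fold higher (4.21 ± 0.15) and the kinases CDPK5 and CPK24 6.42-fold and 6.09-fold lower. Of 25 cytokinin genes, 6 were lower and 3 higher: the cytokinin oxidase CKX11 was 6.35-fold and the phosphotransfer protein AHP1 6.11-fold lower, and LOG, which releases active cytokinin, was 4.70-fold higher (2.23 ± 0.12). Of 11 gibberellin genes, 3 were higher, with the oxidase KAO at least 5.23-fold, and 2 lower, with GA20OX3 at least 7.40-fold. Of 8 ethylene genes, 3 were lower, with the receptor ERS2 2.97-fold, and EIN2 was 1.62-fold higher (0.70 ± 0.08). After quantile normalization none was lower, and with the spike-in covariate 1 was lower and none higher. Of 23 beta-glucosidases, 5 were lower and 4 higher, with BGLU8 at least 11.3-fold lower and BGLU27 and BGLU5 11.4-fold and 10.3-fold higher. Of 33 heat shock proteins and factors, 7 were lower and 2 higher, with HSP17.7 at least 5.43-fold lower and HSP22.3 4.65-fold higher. Over all tested probe sets, 12.7% were higher and 26.2% lower by the same call. In the smallest groups, 3 of 5 histones were lower, with the centromere histone CenH3 at least 2.59-fold, 1 of 13 dehydration genes was higher and 2 lower, 1 of 2 strigolactone genes was higher, and 1 of 2 class III peroxidases was lower.

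Several of these group counts rose by over 1.5 times when the R parent was dropped from the call, which cannot lower a count. The members higher in leaf in the hybrid and the B parent were 10 for sucrose and hexose genes, 8 for beta-glucosidases, 5 each for heat shock, cytokinin, potassium and sodium and diterpenoid genes, 3 each for ethylene, phosphate and MADS-box genes, 2 each for zinc and copper and dehydration genes, and 1 for Aux/IAA genes. The members lower in leaf were 4 for metallothioneins, 2 each for tonoplast aquaporins and abscisic acid genes, and 1 for starch genes. With the spike-in covariate, 7 cellulose synthases and 3 beta-glucosidases were lower, 1 cell cycle gene was higher, and no tonoplast aquaporin or strigolactone gene was higher. After quantile normalization, 4 heat shock genes were lower, 5 cytokinin and 2 jasmonate genes were higher, and no class III peroxidase was lower. With the 3 prime minus 5 prime covariate, 3 iron genes were lower and no ethylene or strigolactone gene was higher, and with array weights no ethylene gene was higher and 1 starch gene was lower.

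The size of the leaf and root difference changed with genotype for many probe sets. Tested within each genotype, 6159 (25.5%) were higher and 8906 (36.9%) lower in young leaf of the hybrid, 6116 (25.3%) and 10985 (45.5%) for the B parent, and 5140 (21.3%) and 12800 (53.0%) for the R parent. Across the tested probe sets, the differences of hybrid and B parent correlated at 0.87, those of hybrid and R parent at 0.77, and those of B parent and R parent at 0.80, as a description over 24130 probe sets of the same arrays. The hybrid differed from its mid-parent value at 41.0% of probe sets. For 6811 (28.2%) young leaf minus young root was higher in the hybrid than in the mean of its parents, and for 3078 (12.8%) it was lower. The median shift was 0.26, and 0.08 after quantile normalization, and the share of higher calls was 68.9% as deposited and 54.1% after it. Without the R parent, the hybrid differed from the B parent upwards at 4925 probe sets (20.4%) and downwards at 3472 (14.4%).

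Photosynthesis genes had a smaller leaf and root difference in the hybrid than in its parents. Of the 44 tested, 33 had a lower difference in the hybrid (background 12.8%) and 2 a higher one (background 28.2%), with a median of -1.56, against 0.26 over all tested probe sets. Against the B parent alone, 32 were lower and none higher, with a median of -1.69. The median young leaf minus young root difference was 1.88 for the hybrid, 3.66 for the B parent and 3.20 for the R parent. Root levels differed more than leaf levels: the mean level of the 44 genes was 11.7 in young leaf and 9.83 in young root of the hybrid, 12.2 and 8.59 for the B parent, and 11.6 and 8.66 for the R parent. The leaf mesophyll markers, which share genes with this group, were also highest in hybrid roots (10.4 to 11.1), and their part in this result was not tested.

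CHLH showed this by array. In the hybrid it was at 12.89, 12.13 and 12.42 in young leaf and 9.38, 10.45 and 9.52 in young root. In the B parent it was at 13.55, 13.58 and 14.61 in leaf and 8.19, 7.21 and 6.69 in root, and in the R parent at 10.96, 10.82 and 11.93 in leaf and 4.40, 6.63 and 6.52 in root. The hybrid root arrays lay above all root arrays of both parents, and the difference was smaller in the hybrid (-3.27 ± 0.48, adjusted p = 2.6e-06). PORA, which reduces protochlorophyllide in the light, was at 6.16, 7.43 and 6.98 in hybrid roots, against 2.64 to 5.40 in B parent roots and 3.52 to 4.46 in R parent roots (-4.55 ± 0.64, adjusted p = 1.2e-06). Its hybrid leaf arrays, at 8.11 to 8.58, were the lowest leaf arrays, so that both tissues moved.

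The other genes with a lower difference in the hybrid differed in which tissue moved. COPT2, a copper importer, was close to background in every leaf array, and in roots it was at 9.93, 10.64 and 9.95 (hybrid), 3.29, 5.22 and 5.14 (B parent), and 8.23, 7.63 and 7.74 (R parent) (-4.05 ± 0.60, adjusted p = 2.6e-06). BURP3 moved in leaf, at 5.82 to 6.65 in hybrid leaf, against 9.45 to 10.13 in B parent leaf and 8.61 to 11.08 in R parent leaf (-3.87 ± 0.56). MAN1 was likewise lower in hybrid leaf, at 4.70, 4.70 and 6.14, than in either parent's leaf, at 7.65 or more (-3.16 ± 0.47). KRP6, an inhibitor of cyclin-dependent kinases, was at 4.95 to 6.69 in hybrid leaf and at 8.24 or more in the leaf of the parents (-3.49 ± 0.77, adjusted p = 0.00048). Set against the B parent alone, the 6 genes also passed: CHLH differed by -3.85, PORA by -4.48, COPT2 by -5.75, BURP3 by -4.06, MAN1 by -2.60 and KRP6 by -2.37 (adjusted p = 0.036).

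Genes with a higher difference in the hybrid included a calcium-dependent kinase, laccases and diterpenoid genes. CPK4 was at 11.68, 10.08 and 9.53 in hybrid leaf and 8.37, 9.07 and 10.36 in hybrid root. In the B parent it was at 8.09 to 9.18 in leaf and 10.30 to 10.84 in root, and in the R parent at 6.75 to 6.96 in leaf and 11.16 to 11.18 in root. The parents were thus lower in leaf than in root, without overlap, and the hybrid arrays of the tissues overlapped (4.28 ± 0.44, adjusted p = 6.2e-09). YSL13, of a family of metal chelate transporters, was at 9.27 to 9.97 in hybrid leaf and 6.86 to 7.52 in hybrid root, whereas in the R parent it was at 5.28 to 6.59 in leaf and 8.68 to 9.37 in root (4.12 ± 0.67, adjusted p = 1.1e-05). LAC24 and LAC19 varied within parental leaf groups. LAC24 measured 3.36, 4.0 and 8.37 in B parent leaf and 9.63, 9.61 and 4.46 in R parent leaf, against 8.30 to 9.11 in hybrid leaf (4.20 ± 1.19, adjusted p = 0.0051). LAC19 behaved alike, at 3.46, 3.05 and 6.82 in B parent leaf and 8.86, 9.27 and 5.12 in R parent leaf (4.80 ± 1.10, adjusted p = 0.00078). In both laccases the third R parent leaf array was the low one. Set against the B parent alone, these 4 genes still passed, at 3.12 for CPK4, 2.67 for YSL13, 4.25 for LAC24 and 4.73 for LAC19.

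The parents differed from each other at 41.0% of probe sets, at 3278 probe sets (13.6%) with a higher and 6624 (27.5%) with a lower young leaf minus young root difference in the R parent than in the B parent. After quantile normalization the median of this contrast changed sign, -0.18 as deposited and 0.02 after it, and the share of higher calls was 33.1% as deposited and 49.8% after it. These counts rest on the R parent leaf arrays, without which the contrast could not be fitted.

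Labdane diterpenoid genes gave the most uniform of the group patterns between the parents. Of 11 tested, 10 had a lower difference in the R parent (background 27.5%) and none a higher one (background 13.6%). The change lay mainly in R parent roots. CYP99A3, a cytochrome P450 of momilactone synthesis, was at 2.83, 2.30 and 2.70 in R parent leaf and 12.34, 12.31 and 12.28 in R parent root. In the B parent it was at 2.92, 3.91 and 3.83 in leaf and 4.64, 7.71 and 7.04 in root (-6.79 ± 0.71, adjusted p = 2.0e-09). Its neighbour in the pathway CYP99A2 was at 3.80, 4.01 and 3.76 in R parent leaf and 10.88, 11.30 and 11.29 in R parent root, against 5.25 to 7.29 in B parent leaf and 3.67 to 7.70 in B parent root (-7.08 ± 0.95, adjusted p = 3.0e-07). The R parent roots lay above every other young array for both genes.

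The diterpene synthases showed the same order. CPS2, a copalyl diphosphate synthase of phytocassane synthesis, was at 7.57, 6.84 and 3.44 in R parent leaf and 9.29, 8.72 and 8.61 in R parent root. In the B parent it was at 8.59, 6.97 and 10.37 in leaf and 2.36, 2.97 and 4.35 in root, so that leaf was lower than root in the R parent and higher in the B parent (-8.34 ± 1.16, adjusted p = 5.9e-07). KSL4, a kaurene synthase-like enzyme of momilactone synthesis, had a mean of 9.07 ± 0.08 in R parent root, against 2.86 ± 0.10 in B parent root and 3.25 ± 0.28 in hybrid root (SD, n = 3). In leaf, KSL4 was close to background in every genotype. CPS4 had a mean of 9.77 ± 0.17 in R parent root and 5.06 ± 1.58 in B parent root, and KSL7 had 9.66 ± 0.17 and 4.32 ± 1.33. Averaged over the hybrid and the B parent alone, the leaf and root difference of CPS4 was 0.87 (adjusted p = 0.064) and that of KSL4 0.08 (adjusted p = 0.74), against -1.77 and -1.94 with the R parent. CYP71Z6 was the 1 member whose difference between the parents did not pass the test (1.44, adjusted p = 0.33), and it was higher in leaf in all 3 genotypes, at least 3.04-fold.

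In roots, the hybrid means lay below those of the R parent for these genes. CYP701A8, another P450 of the pathway, was at 9.84 to 10.92 in hybrid leaf and 6.67 to 7.16 in hybrid root, at 7.11 to 9.42 in R parent leaf and 10.43 to 10.99 in R parent root, and at 8.08 to 12.02 in B parent leaf and 3.10 to 6.43 in B parent root (-7.03 ± 1.03 for R minus B parent, adjusted p = 1.5e-06). CYP71Z7 was at 10.89 to 12.13 in hybrid leaf and 5.56 to 6.01 in hybrid root, and its difference was 3.79 ± 1.02 higher in the hybrid than in the mean of the parents (adjusted p = 0.0034). Against the B parent alone it was 1.17 higher (adjusted p = 0.43), and with the spike-in signal as a covariate 2.99 (adjusted p = 0.072). CYP99A2 was 4.55 ± 0.82 higher in the hybrid than in the mean of the parents (adjusted p = 4.9e-05) and 1.0 higher than in the B parent alone (adjusted p = 0.46).

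**Figure D3:**
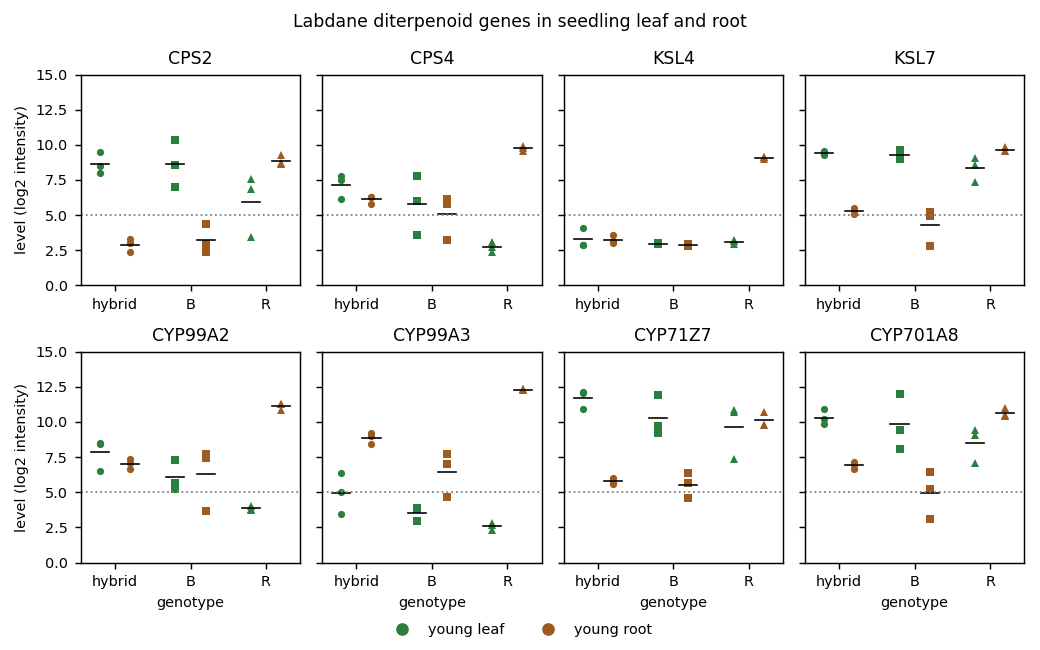
Level (log2 intensity) of 8 labdane diterpenoid genes on the 3 arrays of young leaf (green) and young root (brown) of each genotype, with group means as bars and the level of 5 dotted. The R parent roots stand highest among the root groups in every panel, for example 12.28 to 12.34 for CYP99A3, and the R parent leaf arrays spread widely for CPS2 (3.44 to 7.57).

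Single genes of iron, phosphate and defence were among those with the largest difference between the parents. They do not stand for their groups: of 27 iron genes 6 had a higher and 10 a lower difference in the R parent, and of 16 phosphate genes 1, PHR3, had a higher and 7 a lower one. NAS1 and NAS2, nicotianamine synthases that start phytosiderophore synthesis, were close to background in every leaf group. NAS2 was at 5.25, 2.71 and 3.33 in R parent root and 9.62, 10.29 and 10.18 in B parent root (6.28 ± 0.50, adjusted p = 3.7e-12), with 2.70 to 3.41 in hybrid root. NAS1 was at 3.0, 5.43 and 5.10 in R parent root and 9.16, 10.04 and 9.89 in B parent root (5.21 ± 0.88, adjusted p = 1.2e-05). Both genes were high in roots of the B parent and near background in those of the hybrid. Cht1, a chitinase, was close to background in all leaf groups and in B parent root. It was at 11.05, 13.60 and 13.69 in R parent root, and at 7.08 to 8.48 in hybrid root (-9.68 ± 1.17, adjusted p = 4.3e-08). PHR3, a transcription factor of the phosphate starvation response, was at 9.76 to 9.87 in R parent leaf and 8.95 to 9.0 in R parent root, and at 3.81 to 4.68 in B parent leaf and 8.49 to 8.98 in B parent root (5.53 ± 0.40, adjusted p = 3.4e-13). Only the B parent leaf was near background for this gene.

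ABA8OX2, a hydroxylase that breaks down abscisic acid, was at 8.95, 9.22 and 7.92 in R parent leaf and 8.40, 7.89 and 7.79 in R parent root. In the B parent it was at 5.12 to 6.35 in leaf and 10.16 to 11.01 in root (5.75 ± 0.48, adjusted p = 1.5e-11). SWEET2B, a sugar transporter, was high in B parent leaf alone, at 10.82 to 11.59, against 4.05 to 4.75 in R parent leaf and 6.09 to 6.86 in hybrid leaf (-5.85 ± 0.38, adjusted p = 3.3e-14). SUS6, a sucrose synthase, was at 11.37 to 11.70 in R parent leaf and 5.30 to 6.78 in B parent leaf (3.87 ± 0.78, adjusted p = 0.00015). PRX74, a class III peroxidase, was close to background in leaf and at 4.0 to 6.76 in R parent root, against 9.52 to 10.75 in B parent root (4.96 ± 0.61, adjusted p = 6.1e-08).

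The leaf and root difference of seedlings was then set against that of mature plants, with which it shares no arrays. Across 24130 probe sets the young and the mature differences correlated at 0.69. Of the 3068 probe sets higher in young leaf in all 3 genotypes, 87.4% were also higher and 6.62% lower in mature leaf, where 35.2% and 51.3% of all tested probe sets were called in those directions. Of the 6329 lower in young leaf, 82.0% were also lower and 8.88% higher in mature leaf. The difference itself changed with age at 78.8% of probe sets, at 7920 probe sets (32.8%) towards a higher and 11083 (45.9%) towards a lower value in seedlings. Without the R parent, 8117 (33.6%) were higher and 9671 (40.1%) lower. A sign of RNA quality, the 3 prime minus 5 prime signal of control genes, moved with age in leaf. It averaged 3.70 to 4.34 in the young leaf groups and 2.21 to 2.59 in the mature leaf groups. In root it did not move 1 way: it averaged 2.87 to 3.47 in the young root groups. In mature root it was 3.63 for the hybrid, 3.71 for the B parent and 1.59 for the R parent. With that signal as a covariate, 6744 probe sets were higher and 9740 lower. Age differed together with whatever else differed between the seedlings and the mature plants, and these cannot be told apart.

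Photosynthesis genes as a whole had a far smaller leaf and root difference in seedlings than in mature plants. Chlorophyll genes shifted the same way by less. The median over the 44 genes was 2.94 in seedlings and 6.83 in mature plants. Of these, 36 had a lower difference in seedlings (background 45.9%), as many as without the R parent, and 5 a higher one (background 32.8%). The 19 chlorophyll genes had medians of 2.80 in seedlings and 2.87 in mature plants, with 11 lower and 5 higher in seedlings. Taken gene by gene, the median of seedling minus mature difference was -0.75 for these 19. It was -2.41 for the 44 and -0.28 over all tested probe sets. Medians were 3.63 and 11.7 for light harvesting, 3.18 and 8.76 for photosystems, and 3.66 and 7.80 for the Calvin cycle and photorespiration. The leaf mesophyll markers stood between 8.21 and 11.1 on young root arrays and between 3.05 and 3.71 on mature root arrays, and their part in this result was not tested. Leaf levels were alike and root levels were not: the mean over the 44 genes was 11.6 to 12.2 in the young leaf groups and 12 to 12.1 in the mature leaf groups, against 8.59 to 9.83 in young root and 5.64 to 6.15 in mature root. Between 39 and 42 of the 44 genes were at 5 or above in the young root groups, against 23 to 25 in the mature root groups. CAB2R, a light-harvesting chlorophyll protein, was the plainest case. It lay between 14.88 and 15.65 in young leaf and between 13.50 and 15.32 in young root, a difference of 0.61 ± 0.15. In mature plants it lay between 14.83 and 15.46 in leaf and between 2.34 and 5.16 in root, so that the seedling difference was the smaller one (-11.11 ± 0.22, adjusted p = 1.7e-30). PETE was at 2.88 to 4.89 in mature root, against 13.09 to 14.93 in young root (-10.00 ± 0.16), and the plastid aldolase ALDP at 2.61 to 3.14 in mature root, against 8.53 to 12.06 in young root (-9.57 ± 0.23). GLK2 was near background in root at both ages.

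**Figure D4:**
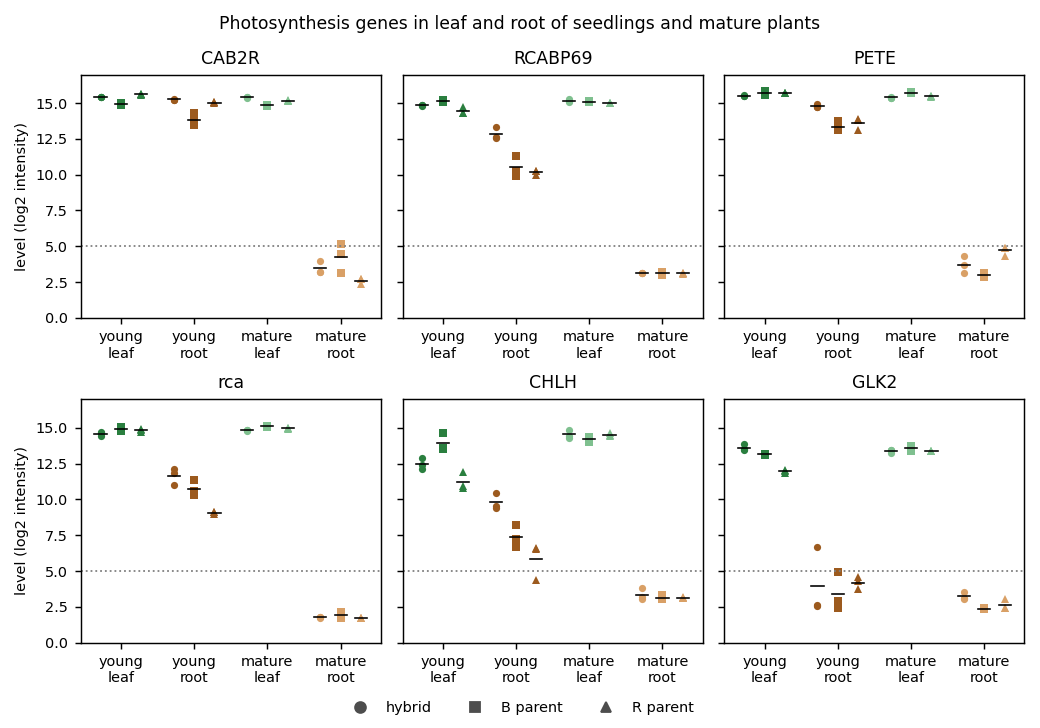
Level (log2 intensity) of 6 photosynthesis genes on every array of young leaf, young root, mature leaf and mature root, with 3 arrays per genotype, group means as bars and the level of 5 dotted. CAB2R is at 13.50 or above on all young root arrays and at 5.16 or below on all mature root arrays, while GLK2 is low in root at both ages.

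Some genes of several groups turned direction with age, zinc and iron genes among them. Of 18 zinc and copper transporters, 4 (ZIP2, ZIP4, ZIP5 and MTP3) were lower in young leaf and higher in mature leaf, and none did the reverse. Of 27 iron genes, 3 (NAS3, NAAT1 and YSL9) were lower in young and higher in mature leaf, and 2 (YSL12 and IDEF1) the reverse. Over all tested probe sets these shares were 7.58% and 3.61%, and the iron genes, at 11.1% and 7.41%, were near them. Larger shares were lower in young and higher in mature leaf in 3 other groups, and none of their members did the reverse. These were plasma membrane aquaporins (4 of 9), carotenoid and abscisic acid genes (3 of 10) and MADS-box genes (5 of 17). Among the zinc and iron genes, NAS3, YSL9, ZIP2, MTP3, YSL12 and IDEF1 were named after their values were seen. Of these, NAS3 (-1.21, adjusted p = 0.13), ZIP2 (-1.03, adjusted p = 0.10) and YSL12 (0.56, adjusted p = 0.23) missed the seedling threshold with the spike-in covariate, YSL9 after quantile normalization (-0.12, adjusted p = 0.52) and ZIP2 also without the R parent (-0.38, adjusted p = 0.16). NAAT1, the aminotransferase of phytosiderophore synthesis, was at 5.92 to 9.46 in young leaf and 9.39 to 11.21 in young root, with a difference of -2.73. In mature plants it was at 14.25 to 14.67 in leaf and 3.01 to 4.76 in root, so that the seedling difference lay far below the mature one (-13.41 ± 0.41, adjusted p = 6.3e-25). The zinc transporter ZIP5 was at 3.21 to 7.07 in young leaf and 9.33 to 10.62 in young root, and at 10.24 to 12.52 in mature leaf and 3.25 to 4.49 in mature root (-13.57 ± 0.59, adjusted p = 1.3e-20). ZIP4 had medians of 7.26 and 10.10 in young leaf and root, and of 12.97 and 5.89 in mature leaf and root (-9.01 ± 0.44). In the mean of the genotypes, NAAT1, ZIP4 and ZIP5 were lower in leaf than in root in seedlings and higher in leaf in mature plants, without overlap between the tissues in mature plants.

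Other genes turned the opposite way, were active at 1 age or, like JAZ10, had a smaller leaf and root difference in seedlings. Higher in young and lower in mature leaf were 3 of 14 nitrogen genes (AMT2-1, AMT2-3 and GLT2), and 1 did the reverse. So were 2 of 11 gibberellin genes (CPS1 and KAO), with none the reverse. Among 28 jasmonate genes 3 were (CM-LOX1, CM-LOX2 and AOS2), with 1 the reverse. The share over all tested probe sets was 3.61%, and these groups were picked after their values were seen. LAC7 was at 11.18 to 13.55 in young leaf and 4.30 to 9.01 in young root, and at 3.31 to 9.57 in mature leaf and 4.99 to 11.05 in mature root (9.83 ± 0.60, adjusted p = 1.8e-16). PDC1, a pyruvate decarboxylase of fermentation, was close to background on all young arrays and on all mature leaf arrays, and at 12.92 to 14.78 in mature root (10.85 ± 0.26, adjusted p = 4.4e-28). Adh2, by contrast, was lower in leaf at both ages, by at least 347-fold in seedlings. JAZ10, a repressor of jasmonate signalling, had medians of 9.66 and 10.47 in young leaf and root and of 5.29 and 13.09 in mature leaf and root (8.53 ± 0.88). CML15, a calmodulin-like protein, had medians of 8.80 and 7.87 in young leaf and root and of 4.31 and 12.96 in mature leaf and root (8.37 ± 0.47). MPH1 was at 6.91 to 8.70 in young leaf and 4.62 to 7.63 in young root, and at 2.19 to 5.77 in mature leaf and 11.16 to 12.19 in mature root (9.43 ± 0.46). A gene annotated only as a peroxidase had medians of 8.80 and 5.48 in young leaf and root and of 4.92 and 12.03 in mature leaf and root (8.98 ± 0.33). By median, mature root was the highest of the tissue and age groups for each of these 4 genes.

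Several of the genes with large seedling differences differed less in mature plants. GER5 had a mean of 12.2 to 13.3 in the young leaf groups and of 2.59 to 3.85 in the mature groups (8.95 ± 0.74, adjusted p = 4.9e-13 for young minus mature). NRAMP4, 70.5-fold higher in young leaf, differed by -0.26 in mature plants (6.40 ± 0.29, adjusted p = 3.0e-20). On the root side, Lsi2 averaged 13.1 to 13.3 in the young root groups and 8.41 to 9.28 in the mature root groups, and its leaf minus root difference was lower in seedlings (-4.33 ± 0.17, adjusted p = 1.5e-21). Lsi1 differed by -4.24 in seedlings and by -0.24 in mature plants (-4.0 ± 0.21). PIP1-3 was lower in seedling leaf and 2.23-fold higher in mature leaf (-7.19 ± 0.27, adjusted p = 1.5e-22).

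**Figure D5:**
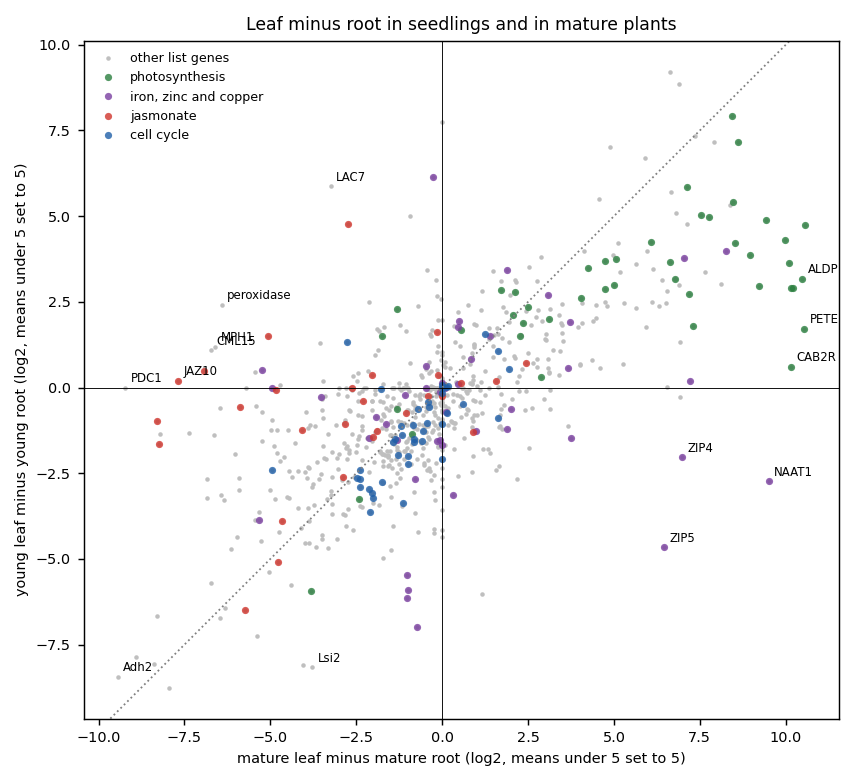
Leaf minus root (log2, group means under 5 raised to 5) in seedlings (vertical) against mature plants (horizontal) for the genes of the groups described, with 4 groups coloured and the dotted line marking equal differences. Most photosynthesis genes lie to the right of the line, NAAT1, ZIP4 and ZIP5 lie below 0 in seedlings and above 0 in mature plants, and PDC1 lies at 0 in seedlings.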

How the data were processed

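Rice Genome Array values were used as the authors deposited them, as linear intensity; GCRMA is named in the submitters' processing notes, with its settings not given in the sources used here. Here log2 was taken of the deposited intensity, values under 1 being set to 1, with no further normalization. Probe sets were named through the platform annotation and the RefSeq gene table (assembly ASM3414082v1): 22436 of 57381 had 1 gene, 95 several and 34850 none listed. Of a gene's probe sets, the one with the highest mean was used, and those marked as cross-hybridizing were left out.

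limma 3.58.1 (R 4.3.3; lmFit, contrasts.fit, eBayes) was fitted over all 45 arrays as 15 group means and tested on simulated data. Contrasts were young leaf minus young root, overall and per genotype, hybrid minus mid-parent, R minus B parent, and young minus mature. Named genes were the 12 largest in each direction by the smallest bounded difference over genotypes, the 6 largest per direction of each interaction, and the leading members of each group with those against its majority. Members and groups were chosen with earlier results of these data known. Alternatives covered normalization, filters, covariates, weights and single arrays. The number of arrays limits the precision. Pairing by the labels' replicate numbers was checked and no sign of it was seen.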

Additional observations from a re-analysis of the deposited data

Results flagged for a closer look

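A set of 3 contrasts asked whether the leaf and root difference itself differed between groups, and each had many calls with limma: 9889 probe sets for hybrid against mid-parent, 9902 for R parent against B parent, and 19003 for seedlings against mature plants. The named genes of each contrast are listed here with the difference between the differences in log2 units, and their array values are given above.

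For the hybrid against the mean of its parents, the higher ones were LAC19 (4.80), CYP99A2 (4.55), CPK4 (4.28), LAC24 (4.20), YSL13 (4.12) and CYP71Z7 (3.79). The lower ones were PORA (-4.55), COPT2 (-4.05), BURP3 (-3.87), KRP6 (-3.49), CHLH (-3.27) and MAN1 (-3.16).

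For the R parent against the B parent, the higher ones were NAS2 (6.28), ABA8OX2 (5.75), PHR3 (5.53), NAS1 (5.21), PRX74 (4.96) and SUS6 (3.87). The lower ones were Cht1 (-9.68), CPS2 (-8.34), CYP99A2 (-7.08), CYP701A8 (-7.03), CYP99A3 (-6.79) and SWEET2B (-5.85).

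For seedlings against mature plants, the higher ones were PDC1 (10.85), LAC7 (9.83), MPH1 (9.43), the gene annotated as a peroxidase (8.98), JAZ10 (8.53) and CML15 (8.37). The lower ones were ZIP5 (-13.57), NAAT1 (-13.41), CAB2R (-11.11), PETE (-10.00), ALDP (-9.57) and ZIP4 (-9.01).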

How the results depend on the processing

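No named gene changed direction under the alternatives run, apart from a pair of diterpenoid genes: the mean young leaf minus young root difference of CPS4 was 0.87 and that of KSL4 0.079 in the hybrid and the B parent alone, an alternative chosen after seeing the data. Quantile normalization gave medians over all probe sets of -0.10 for young leaf minus young root, 0.084 for hybrid against mid-parent, 0.023 for R against B parent, which reversed, and -0.11 for seedlings against mature plants, and 4954 probe sets higher for R against B parent, against 3278 as deposited. Without the level filter, 25603 were higher in young leaf over the genotypes, 15703 for the B parent alone and 21241 for the R parent alone, and 4760 were lower for hybrid against mid-parent; more probe sets are tested there. With background set at 6, the median difference of the genes lower in leaf was -6.55. Leaving out each young array in turn gave 6623 to 6875 higher and 12678 to 12871 lower over the genotypes, 2929 to 3092 and 5937 to 6359 in all 3 genotypes, 5931 to 7166 and 2658 to 3192 for hybrid against mid-parent, 2841 to 3511 and 5980 to 7134 for R against B parent, and 7791 to 7995 and 10968 to 11232 for age. In deviations from their group means, leaf and root arrays of the same replicate number correlated at -0.27 to 0.06. No sign of pairing by number was seen, though 3 arrays per group cannot exclude it. With the replicate block 6778 were higher and 12839 lower, against 6778 and 12844 without it, and no named gene crossed the threshold. CPS4 (-1.05, adjusted p = 0.18) and HAK18 (0.44, adjusted p = 0.079) missed the threshold with the spike-in signal as a covariate. Array number and the level of 5 limit what dim genes can show.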
